A study of Mus musculus with 97 samples.

Results

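Mouse embryonic stem cells grow as compact colonies held together by surface molecules, and 10 transcripts that encode such molecules were followed through the cell cycle: *Pecam1*, *Jam2*, *Icam1*, *Cdh1*, *Epcam*, *Cldn4*, *Cldn6*, *Cldn7*, *Cd9* and *Cd24a*. They were chosen by name from the 37620 genes of the deposited count table, with auxin results for some of them already known. Their auxin values, auxin calls and p-values for auxin effects are therefore given as a description and are not read as tests. All 10 were in the table and all 10 passed the filter on low counts, among 16011 genes that did. The study asked what Sox2 and other transcription factors do around mitosis, and 18 of its 97 libraries are RNA sequencing of total RNA depleted of ribosomal RNA from 1 line, Sox2-AID, whose Sox2 carries a degron tag that lets auxin trigger removal of the protein. The 6 groups of 3 libraries are early G1, late G1 and G2 cells, each without auxin and after 3 h of 0.5 mM auxin. Cells were cultured on gelatine in serum medium with 10 ng/ml LIF, stained with 20 µM Hoechst for the last 20 min and sorted on Hoechst and GFP. What GFP reports in this sort, and whether the inhibitors PD0325901 and CHIR99021 that the labels list for use when required were in these cultures, is not stated in the sources used here. The untreated libraries come from the same tagged line, so every group carries the tag.

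The 18 libraries held 24841963 to 37587322 counts each. The 3 untreated libraries numbered 3 stood apart: they had the lowest totals of all, and a single RNA, AC157822.1, took 50.45% to 54.57% of their TPM (a level per transcript length, summing to the same total in every library), against 54.8% to 62.44% in the other 15. Calls that change without these 3 libraries are given both ways. Stem cell identity was checked against 12 marker transcripts, whose summed level was 4038 to 4638 CPM (a gene's counts scaled to a common library total by the TMM method) in the 18 libraries. *Pou5f1* lay between 682.3 and 1092 CPM and *Sox2* between 277 and 412.8 CPM. Since the tag acts on the protein, *Sox2* RNA does not show whether the protein was lost. Pecam1, Jam2 and Icam1 are also vascular proteins, so 12 endothelial markers were checked. Their summed level was 42.71 to 55.51 CPM with overlapping ranges in all 6 groups. The largest part was *Egfl7*, at 17.95 to 26.43 CPM, with *Tek* at 5.60 to 15 CPM and *Robo4* at 4.26 to 8.97 CPM. *Emcn*, *Erg* and *Cdh5* did not exceed 0.0357, 0.327 and 0.88 CPM. The summed level of 11 blood markers was 35.56 to 55.55 CPM, mostly *Laptm5*, with medians of 0.0152 CPM for *Ptprc* and 0 for *Tyrobp*. The 12 fibroblast markers summed to 259.5 to 828.8 CPM, mostly *Fn1*, with medians of 0 for *Dcn*, *Lum* and *Postn*. In whole populations of sorted cells, fewer cells that express a gene and less RNA per cell cannot be told apart.

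Cells stick to one another and sense contact through several families of surface protein. Cadherins bind like to like across the gap between neighbours and connect to actin through catenins. Claudins form the strands of tight junctions, and JAM proteins sit beside them. Members of the immunoglobulin superfamily such as PECAM-1 and ICAM-1 bind themselves or integrins, and tetraspanins such as CD9 gather partners into membrane domains. PECAM-1, E-cadherin, EpCAM, CD9 and CD24 are widely used as surface markers when pluripotent cells are sorted or staged.

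Per unit of length, *Cd9* was the most abundant of the 10 in untreated cells, with a lowest, median and highest value of 26.62, 29.15 and 33.79 TPM over 9 libraries. *Cdh1*, encoding E-cadherin, followed at 9.43, 12.31 and 14.18 TPM. *Icam1* was at 7.28, 9.62 and 12.79 TPM, and *Jam2* at 5.68, 7.49 and 9.03 TPM. *Cdh1* overlapped with *Icam1*, and *Icam1* with *Jam2*, though in 8 of 9 libraries each the first exceeded the second. *Pecam1* was at 2.37, 4.72 and 5.83 TPM, *Epcam* at 2.44, 2.82 and 3.8 TPM, and *Cldn4* at 1.86, 2.4 and 4.01 TPM. *Epcam* exceeded *Cldn4* in only 6 of 9 libraries, so their order does not stand out from the spread. *Cldn6* followed at 1.22, 1.54 and 1.84 TPM, below every *Cldn4* value. *Cd24a* (0.32, 0.46 and 0.95 TPM) and *Cldn7* (0.13, 0.24 and 0.6 TPM) were the scarcest, and *Cldn7* rested on 16 to 54 counts per library. In the 9 auxin libraries *Icam1* stood above *Cdh1*, at medians of 12.47 and 11.04 TPM, and *Cldn4* above *Epcam*, at 2.71 and 2.66 TPM. In both pairs the ranges overlapped, and the other 6 transcripts kept their rank.

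**Figure D1:**
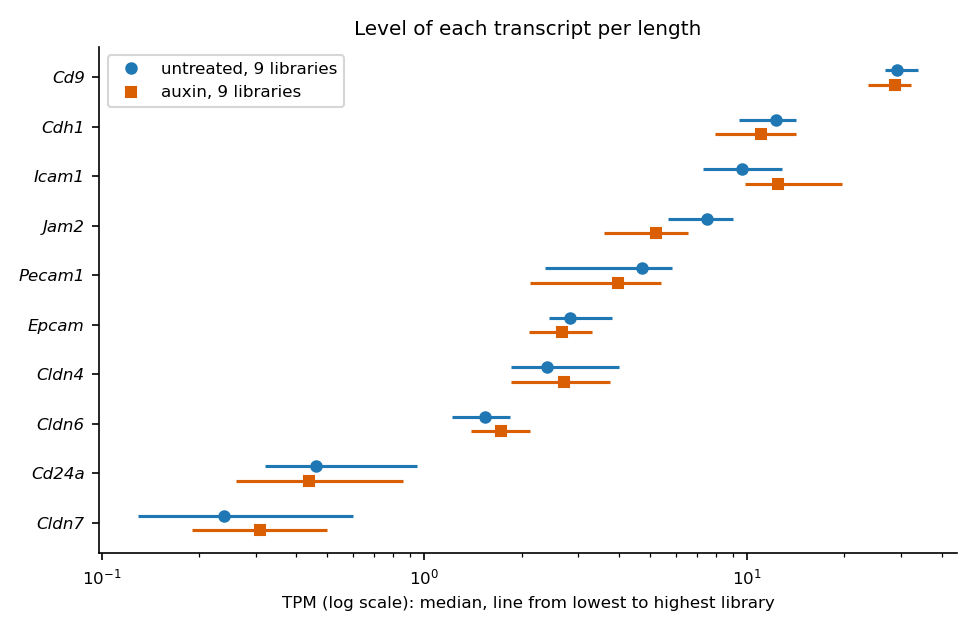
Level of the 10 transcripts per unit of length, in TPM on a log axis. Points are medians of 9 untreated (circles) or 9 auxin (squares) libraries and lines run from the lowest to the highest library. *Cd9* stands apart at the top and *Cd24a* and *Cldn7* lie below 1 TPM.

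*Pecam1* had the clearest cell-cycle pattern of the 10: it was much lower in late G1 relative to early G1 and back near its early G1 level in G2. It encodes PECAM-1, a homophilic immunoglobulin-family molecule of endothelium, platelets and undifferentiated embryonic stem cells. In untreated cells it measured 76.1, 78.8 and 78.2 CPM in early G1, 40.0, 41.3 and 41.8 CPM in late G1, and 70.8, 75.4 and 71.0 CPM in G2. The late G1 libraries lay well apart from the other 6, with no overlap. Of all tested genes, 23.9% did not overlap between untreated early and late G1, and 20.7% between late G1 and G2. With auxin the *Pecam1* values were 74.1, 75.9 and 75.2 CPM in early G1, 41.1, 39.5 and 39.3 CPM in late G1, and 72.3, 67.5 and 70.3 CPM in G2. The same dip was therefore present in the 9 auxin libraries as well. From early to late G1 *Pecam1* fell by 0.92 ± 0.06 (SE) on the log2 scale without auxin, to 0.528 of its early level, with a 95% interval of -1.05 to -0.79 and an adjusted p of 1.24e-07. With auxin the difference was -0.91 ± 0.06 (adjusted p = 1.6e-07). From late G1 to G2 it rose by 0.82 ± 0.06 without auxin (adjusted p = 1.03e-07) and by 0.81 ± 0.06 with it (adjusted p = 1.15e-07). G2 and early G1 differed by -0.10 in untreated cells, which did not pass the test (adjusted p = 0.43). By p-value, *Pecam1* ranked 2 of 16011 genes in the untreated comparison of late with early G1. By size, 584 of the 16011 genes differed as far downward, of which 180 were called, but only 26 of the 8579 whose average log2 CPM reached 3. In untreated cells, 186 genes were called lower from early to late G1 and higher from late G1 to G2. The *Pecam1* calls held with each library left out in turn and under every other setting tried.

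The auxin values of *Pecam1* lay close to the untreated ones. The log2 differences were -0.05 for early G1 cells, -0.04 for late G1 cells and -0.05 for G2 cells, and -0.04 ± 0.04 averaged over phases. Over 18 libraries that share 6 groups, the named transcripts whose log2 CPM followed it most closely were *Rnf19a* (Pearson r = 0.963), *Fam64a* (0.957), *Faf2* (0.954), *D2Ertd750e* (0.954) and *Rtkn2* (0.951). This search over 7918 transcripts was added after the *Pecam1* values were seen.

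**Figure D2:**
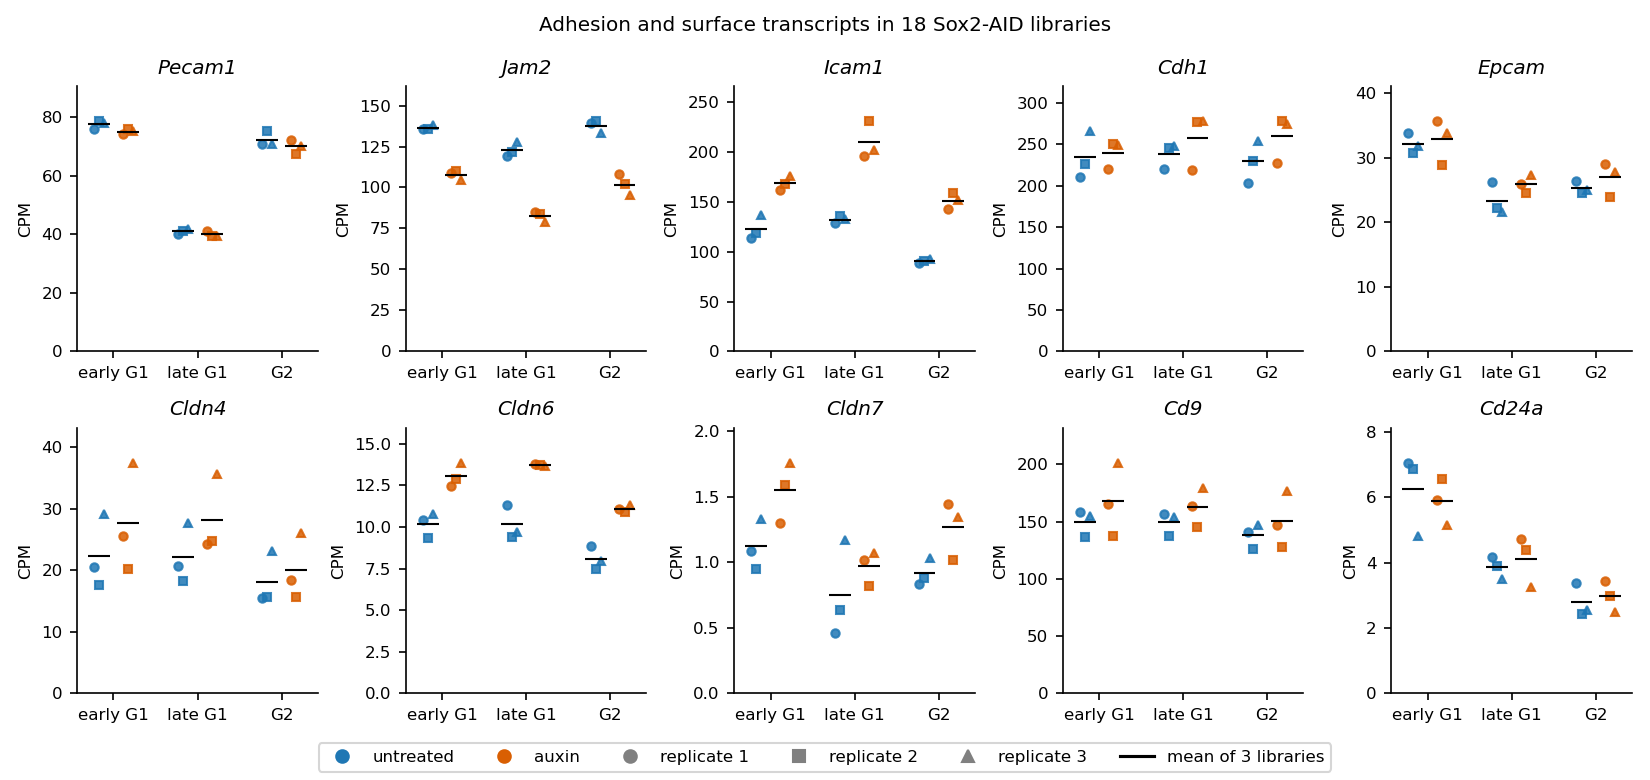
CPM of the 10 transcripts by phase, 1 panel each with a y axis from 0. Blue is untreated and orange auxin, symbols give the replicate number and black lines the mean of 3 libraries. *Pecam1* drops in late G1 with and without auxin, *Jam2* is lower and *Icam1* higher in every auxin group, and the triangles of *Cldn4* are the highest point of every group.

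*Jam2* and *Icam1* moved in opposite directions with auxin. *Jam2* encodes JAM-B, a junctional adhesion molecule that pairs with JAM-C across cell contacts. Without auxin it measured 135.9, 135.5 and 138.1 CPM in early G1, 119.3, 121.4 and 127.5 CPM in late G1 and 139.1, 140.8 and 133.1 CPM in G2. With auxin it measured 108.7, 110.1 and 104.8 CPM in early G1, 85.3, 83.7 and 79.2 CPM in late G1 and 108.0, 102.0 and 95.5 CPM in G2. The auxin libraries were below all untreated ones in each phase, and below their same-numbered partner in 9 of 9 pairs. The log2 differences of *Jam2* were -0.34 ± 0.07 for early G1 cells, -0.57 ± 0.07 for late G1 cells and -0.43 ± 0.07 for G2 cells, with an average of -0.45 ± 0.04.

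Earlier results of these data were known when the members were chosen, though phase differences were not used in the choice. With that limit, *Jam2* was also compared between phases. With auxin it fell by 0.38 ± 0.07 from early to late G1 (adjusted p = 0.00166), and it rose by 0.30 ± 0.07 from late G1 to G2 (adjusted p = 0.0108). The second call was lost without auxin late G1 replicate 3 (adjusted p = 0.0542) or auxin G2 replicate 1 (adjusted p = 0.0742). Without auxin the late G1 values were also the lowest, at -0.15 ± 0.07 against early G1 (adjusted p = 0.189). With the replicate number as a block, this difference had an adjusted p of 0.0427, and that from late G1 to G2, 0.17 ± 0.07, went from 0.182 to 0.0377. The difference between the auxin effects in late and early G1 was -0.23 ± 0.09, with a 95% interval of -0.43 to -0.03. Its unadjusted p of 0.0257 became 1 after adjustment over all genes. The 5 named transcripts most like *Jam2* over the 18 libraries were *Lifr* (r = 0.948), *Zfp518b* (0.946), *Sirt1* (0.939), *St8sia1* (0.928) and *Nr5a2* (0.924). *Lifr*, the LIF receptor, had an average auxin difference of -0.58 ± 0.05.

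*Icam1* encodes ICAM-1, the ligand through which leukocyte integrins hold on to other cells. Without auxin it measured 113.2, 118.9 and 136.3 CPM in early G1, 128.2, 135.3 and 133.1 CPM in late G1, and 89.0, 90.7 and 92.3 CPM in G2. With auxin it measured 161.4, 168.2 and 175.4 CPM in early G1, 195.6, 231.3 and 202.0 CPM in late G1, and 142.3, 158.9 and 151.5 CPM in G2. All 9 auxin values exceeded all 9 untreated ones, while within a single phase 11% to 13.7% of all tested genes did not overlap. The log2 differences were 0.45 ± 0.08 for early G1 cells, 0.66 ± 0.08 for late G1 cells and 0.73 ± 0.08 for G2 cells, with an average of 0.62 ± 0.05. In early G1 the difference ranged from 0.40 to 0.54 with 1 library left out, and it stayed among the calls in 1 of 6 such fits. That call was also lost on TPM and with only the compared groups in the fit.

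G2 cells had the least *Icam1*. Without auxin it fell by 0.54 ± 0.08 from late G1 to G2 (adjusted p = 0.000445), and with auxin by 0.47 ± 0.08 (adjusted p = 0.00155). G2 was also below early G1 in untreated cells, by -0.44 ± 0.08 (adjusted p = 0.0056), a call lost without the untreated libraries numbered 3 (-0.37 ± 0.09, adjusted p = 0.0633). With auxin that difference was -0.16 ± 0.08 (adjusted p = 0.346). From early to late G1 *Icam1* rose by 0.32 ± 0.08 with auxin (adjusted p = 0.0243) and differed by 0.11 ± 0.08 without it (adjusted p = 0.511). The auxin call was lost without auxin early G1 replicate 1 (adjusted p = 0.108) or 2 (0.0714), or auxin late G1 replicate 2 (0.128). The auxin effect in G2 minus that in early G1 was 0.28 ± 0.12, with a 95% interval of 0.03 to 0.53, an unadjusted p of 0.0282 and an adjusted p of 1. Most like *Icam1* over the 18 libraries were *Grhl3* (r = 0.955), *Slc30a2* (0.952), *Ngfr* (0.945), *Gprc5c* (0.943) and *Cldn6* (0.923), the last of them also among the 10 transcripts.

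*Cldn6*, *Icam1*, *Cldn4* and *Cd9* are shown with the 250 bases upstream of their start site, because *Icam1* with *Cldn6* (r = 0.923) and *Cldn4* with *Cd9* (r = 0.867) varied alike over the 18 libraries, which share groups and replicate numbers. The sequences are RefSeq's on build GRCm38.p6, read 5′ to 3′ on the gene's strand, and windows were found for 6 of the 10 transcripts, 7 windows in all because *Cldn7* has 2 starts. The positions are chr9:21015690-21015939 on the plus strand for *Icam1*, chr17:23679115-23679364 on the plus strand for *Cldn6*, chr5:134946935-134947184 on the minus strand for *Cldn4* and chr6:125494761-125495010 on the minus strand for *Cd9*. Capitals mark matches to the GC box GGGCGG, the E-box CAGGTG bound by Snail and Zeb factors, or the STAT site TTCNNNGAA, on either strand.
Icam1: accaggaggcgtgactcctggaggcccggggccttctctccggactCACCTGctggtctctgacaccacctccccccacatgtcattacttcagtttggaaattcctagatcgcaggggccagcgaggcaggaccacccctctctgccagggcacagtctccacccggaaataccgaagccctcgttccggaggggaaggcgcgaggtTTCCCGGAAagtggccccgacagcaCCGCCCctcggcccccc
Cldn6: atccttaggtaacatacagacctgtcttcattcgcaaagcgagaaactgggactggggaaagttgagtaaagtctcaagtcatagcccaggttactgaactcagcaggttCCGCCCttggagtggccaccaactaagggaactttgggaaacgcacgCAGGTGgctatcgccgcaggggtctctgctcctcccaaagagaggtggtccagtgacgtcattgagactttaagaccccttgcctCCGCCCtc
Cldn4: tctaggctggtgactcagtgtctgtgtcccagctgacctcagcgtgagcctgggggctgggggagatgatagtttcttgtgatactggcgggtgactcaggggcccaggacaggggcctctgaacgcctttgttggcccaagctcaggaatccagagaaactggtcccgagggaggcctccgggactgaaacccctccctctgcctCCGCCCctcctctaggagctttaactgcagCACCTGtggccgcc
Cd9: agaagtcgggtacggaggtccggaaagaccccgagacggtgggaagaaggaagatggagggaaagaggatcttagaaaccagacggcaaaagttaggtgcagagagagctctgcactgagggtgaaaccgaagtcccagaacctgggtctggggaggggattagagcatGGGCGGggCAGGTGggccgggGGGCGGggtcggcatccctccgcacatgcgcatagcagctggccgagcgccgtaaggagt

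All 4 windows hold a GC box and the E-box. Over the 7 windows, 6 hold GGGCGG and 6 hold CAGGTG, against 32.74% and 17.22% of all 32851 windows of this length. TTCNNNGAA is in 2 of 7, once at -42 from the *Icam1* start and once in a *Cldn7* window, against 7.02% of all. The Sox core in the spelling CATTGT, the octamer ATGCAAAT and the Esrrb site TCAAGGTCA are in none of the 7, against 10.69%, 1.6% and 0.39% of all. Other spellings of a Sox core were not searched. The letters CTTTGT, for example, occur in the *Cldn4* window shown. Whether the windows lack every form of a Sox core was therefore not tested. The windows differ in base composition: GC content is 65.2% for *Icam1*, 53.6% for *Cldn6*, 62.0% for *Cldn4* and 61.6% for *Cd9*, and the median over all windows is 52.4%. These are letter matches in a short window and no binding was measured here.

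E-cadherin RNA showed the narrowest range of the 10. *Cdh1*, the gene of the adhesion molecule that compacts stem cell colonies, lay between 203.5 and 278.7 CPM in all 18 libraries, and its phase differences ran from -0.05 to 0.12 with none called. The auxin differences were 0.03 for early G1 cells, 0.12 for late G1 cells and 0.18 for G2 cells, each ± 0.12. The library numbered 1 was the lowest of its group in 6 of 6 groups. *Cd9*, a tetraspanin known for its part in egg and sperm fusion, also varied by number but in another order, with replicate 2 lowest in 6 of 6 groups. It measured 158.1, 136.3 and 154.8 CPM in untreated early G1 and 165.8, 137.3 and 201.6 CPM with auxin. In late G1 the values were 157.1, 137.3 and 154.5 CPM without and 163.4, 145.6 and 179.8 CPM with auxin, and in G2 141.2, 126.4 and 147.0 CPM without and 147.1, 127.8 and 176.5 CPM with it. The groups overlapped in every phase, while the auxin library was higher in 9 of 9 same-numbered pairs, by 0.14 ± 0.08 on average. Replicate 3 carried much of this, with pair differences of 0.38, 0.22 and 0.26 against 0.01 to 0.09 for the other numbers, and without it the average was 0.05 ± 0.07. No phase difference of *Cd9* was called.

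*Epcam* was highest in early G1. It encodes a homophilic adhesion and signalling protein of epithelia and stem cells. Without auxin it measured 33.7, 30.7 and 31.7 CPM in early G1, 26.2, 22.2 and 21.6 CPM in late G1 and 26.4, 24.4 and 25.0 CPM in G2. Early G1 was above both later phases without overlap. Of all tested genes, 23.9% did not overlap between early and late G1 and 21.9% between early G1 and G2. *Epcam* fell by 0.46 ± 0.10 from early to late G1 (adjusted p = 0.00944), but not past the threshold without the untreated libraries numbered 3 (-0.41 ± 0.12, adjusted p = 0.0823). G2 against early G1 gave -0.34 ± 0.10 (adjusted p = 0.0663, and 0.00184 with the replicate block). With auxin the values were 35.7, 28.9 and 33.8 CPM in early G1, 25.9, 24.5 and 27.3 CPM in late G1 and 29.0, 23.9 and 27.8 CPM in G2. Late G1 was again below early G1, by -0.34 ± 0.10 (adjusted p = 0.0449), in a call that remained only without auxin early G1 replicate 2 among 6 such fits (lost calls, 0.0672 to 0.183). G2 against early G1 was -0.29 ± 0.10 with auxin (adjusted p = 0.133, and 0.0068 with the block). The average auxin difference of *Epcam* was 0.09 ± 0.06.

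*Cldn6*, an embryonic claudin, was higher with auxin in each phase and lowest in G2. It measured 10.4, 9.35 and 10.8 CPM in untreated early G1, 11.3, 9.42 and 9.71 CPM in late G1 and 8.84, 7.45 and 7.97 CPM in G2. With auxin it measured 12.5, 12.9 and 13.9 CPM in early G1, 13.8, 13.7 and 13.7 CPM in late G1 and 11.1, 10.9 and 11.3 CPM in G2. The auxin and untreated libraries did not overlap in any phase. In a single phase 11% to 13.7% of all tested genes did not overlap, and the share that did not overlap in every phase was not computed. The auxin differences were 0.36 ± 0.10, 0.43 ± 0.10 and 0.46 ± 0.10, with an average of 0.42 ± 0.06. Without the untreated libraries numbered 3 those of late G1 and G2 were 0.40 ± 0.11 and 0.45 ± 0.12, no longer among the calls. With 1 library left out, the late G1 call remained in 1 of 6 fits and the G2 call in 0 of 6. Both were also lost without the count filter, on TPM and with only the compared groups in the fit. G2 minus early G1 was -0.33 ± 0.10 without auxin (adjusted p = 0.0802, and 0.0168 with the block), and G2 minus late G1 was -0.33 ± 0.10 (0.0765, and 0.0167 with the block). With auxin, G2 minus late G1 was -0.30 ± 0.10 (0.0868, and 0.0181 with the block), and G2 minus early G1 was -0.24 ± 0.10 (0.229, and 0.0721 with the block).

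*Cldn4*, a claudin of tight epithelia, varied most by replicate number: replicate 3 was the highest library in 6 of 6 groups. Without auxin it measured 20.5, 17.6 and 29.1 CPM in early G1, 20.7, 18.2 and 27.7 CPM in late G1 and 15.5, 15.6 and 23.2 CPM in G2. With auxin it measured 25.5, 20.3 and 37.5 CPM in early G1, 24.2, 24.8 and 35.7 CPM in late G1 and 18.4, 15.7 and 26.0 CPM in G2. Within each phase the auxin and untreated libraries overlapped, yet the auxin library was higher in 9 of 9 same-numbered pairs. The G2 pair numbered 2 differed by only 0.005 on the log2 scale. No *Cldn4* difference was called without the block. With it, the auxin difference was 0.30 ± 0.07 in early G1 and 0.34 ± 0.07 in late G1, G2 was below late G1 by -0.30 ± 0.08 without auxin (adjusted p = 0.00946) and by -0.50 ± 0.07 with it (adjusted p = 4.48e-05), and G2 was below early G1 by -0.30 ± 0.08 (adjusted p = 0.00981) and -0.46 ± 0.07 (adjusted p = 0.000188). *Cldn7* measured 0.460 to 1.76 CPM over the 18 libraries. Its auxin differences were 0.46 ± 0.28, 0.39 ± 0.30 and 0.47 ± 0.29, with an average of 0.44 ± 0.17. That average was 0.67 ± 0.16 without the untreated libraries numbered 3 and 0.45 ± 0.15 with the block. It joined the calls in both fits, which is a description like every auxin call here. It also did so without untreated late G1 replicate 3 alone (0.59 ± 0.15). From early to late G1 *Cldn7* differed by -0.60 ± 0.30 without auxin (adjusted p = 0.266). With 1 library left out this ran from -0.32 without untreated late G1 replicate 1 to -1.04 without replicate 3 of that group, which alone passed (adjusted p = 0.0472).

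*Cd24a*, encoding a small mucin-like molecule anchored by GPI, was highest in early G1 and lowest in G2. Without auxin it measured 7.06, 6.87 and 4.82 CPM in early G1, 4.17, 3.91 and 3.51 CPM in late G1 and 3.39, 2.42 and 2.54 CPM in G2. With auxin it measured 5.93, 6.56 and 5.15 CPM in early G1, 4.72, 4.39 and 3.24 CPM in late G1 and 3.43, 2.98 and 2.50 CPM in G2. Early G1 lay above G2 without overlap in both sets. Of all tested genes, 21.9% did not overlap between these phases without auxin and 23% with it. From early G1 to G2 *Cd24a* fell by 1.16 ± 0.20 without auxin (adjusted p = 0.00193) and by 0.98 ± 0.19 with it (adjusted p = 0.00644). From early to late G1 it fell by 0.69 ± 0.19 without auxin (adjusted p = 0.0331), in a call that remained in 1 of 6 fits with a library left out, that without early G1 replicate 3 (lost calls, 0.0644 to 0.139), and not without the untreated libraries numbered 3 (-0.78 ± 0.21, adjusted p = 0.0521). With auxin this step was -0.51 ± 0.19 (adjusted p = 0.115, and 0.00688 with the block). The step from late G1 to G2 was -0.47 ± 0.20 in both sets, with adjusted p of 0.209 and 0.187, or 0.0282 and 0.0222 with the block. The levels rest on 69 to 233 counts per library, and *Cd24a* has related intronless copies with which reads could be shared.

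**Figure D3:**
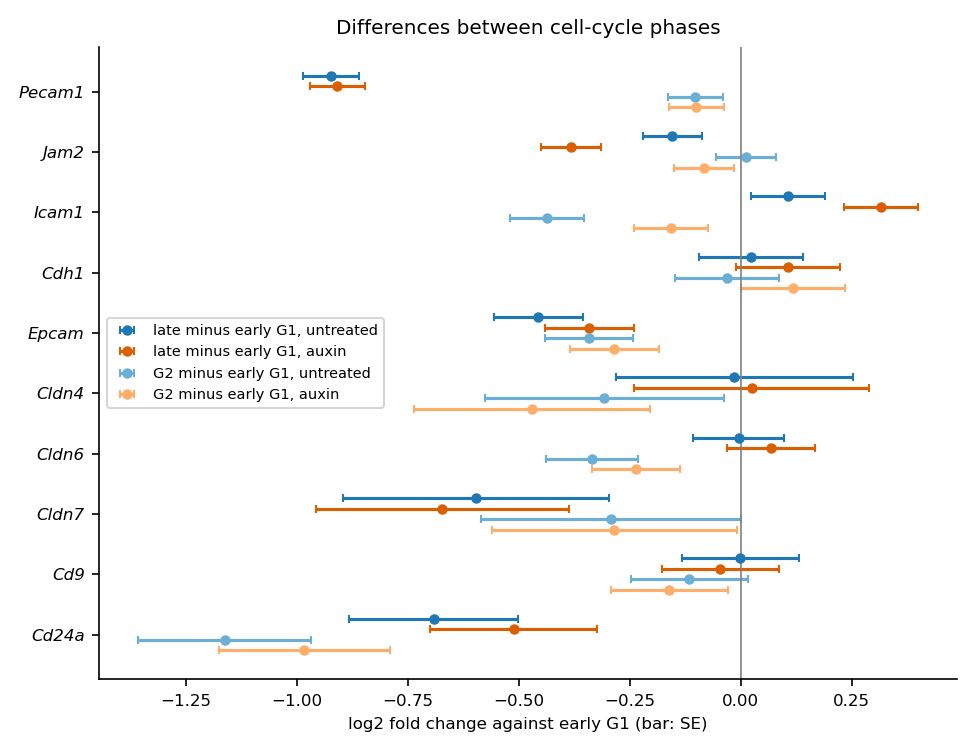
log2 fold change of late G1 and of G2 against early G1 for the 10 transcripts, without auxin (blue) and with it (orange), with bars of 1 SE. *Pecam1* lies near -0.92 in late G1 and near -0.10 in G2, while *Cd24a* is lower in G2 (-1.16 and -0.98) than in late G1 (-0.69 and -0.51).

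Among all 10, the phase comparisons called 3 from early to late G1 without auxin, all lower (*Pecam1*, *Epcam*, *Cd24a*), against 7.02% of all genes tested. G2 against early G1 called 2, both lower (*Icam1*, *Cd24a*), against 3.6%. With the block it called 5, against 14.7% of all genes. G2 against late G1 called *Pecam1* higher and *Icam1* lower, against 5.04%. With the block it called 6, against 15.9%. The block called 4 from early to late G1, against 21.8%. With auxin, 4 were called from early to late G1 (*Icam1* higher, and *Pecam1*, *Jam2* and *Epcam* lower) against 7.42%, and 5 with the block, against 22.6%. G2 against early G1 called 1, *Cd24a*, against 3.88%, and 3 with the block, against 15.2%. G2 against late G1 called 3 (*Pecam1* and *Jam2* higher, *Icam1* lower) against 5.91%, and 6 with the block, against 17.7%. The block thus multiplied the calls among all genes as well. On log2(TPM + 1) all 4 *Pecam1* calls remained, with that of *Epcam* from early to late G1 and of *Cd24a* from early G1 to G2 without auxin, and the other 9 were lost, on a scale where 0.593% to 1.95% of all genes were called in these comparisons. With only the compared groups in the fit, which called 1.07% to 6.18% of all genes, *Epcam* lost both its calls, *Cd24a* that from early to late G1, *Icam1* those of untreated G2 against early G1 and of late against early G1 with auxin, and *Jam2* that of G2 against late G1. The median log2 difference of the 10 was -0.08 from early to late G1 and -0.30 from early G1 to G2 in untreated cells, beside 0.00 for all tested genes in both.

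For auxin, 1 of the 10 was called in early G1, where 0.106% of all genes were. In late G1 it was 3 (1.02%), in G2 3 (0.668%) and on average over phases 3 (5.68%). With the block the counts were 4 (1.59%), 4 (5.95%), 3 (3.51%) and 7 (24.6%). Since auxin results were known when the transcripts were chosen, nothing is read from these counts. The median of the 10 was 0.10, 0.14, 0.13 and 0.12 in these comparisons, and that of all tested genes 0.01, 0.00, 0.01 and 0.01. The scale matters for the small auxin differences. On log2(TPM + 1) the median of all genes was -0.13 on average over phases, and *Cdh1*, *Epcam*, *Cd9* and *Cd24a* changed sign to -0.09, -0.09, -0.07 and -0.06. On that scale *Jam2* stood at -0.49, *Icam1* at 0.37 and *Cldn6* at 0.13, and none of the 10 was called in any single phase. No auxin effect differed between phases past the threshold: 0 of the 10 and 0% of all genes were called in each of the 3 comparisons of auxin effects by edgeR, with 222, 222 and 218 genes at an unadjusted p under 0.05. DESeq2 called 1, 0 and 0 genes, none of them among the 10.

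**Figure D4:**
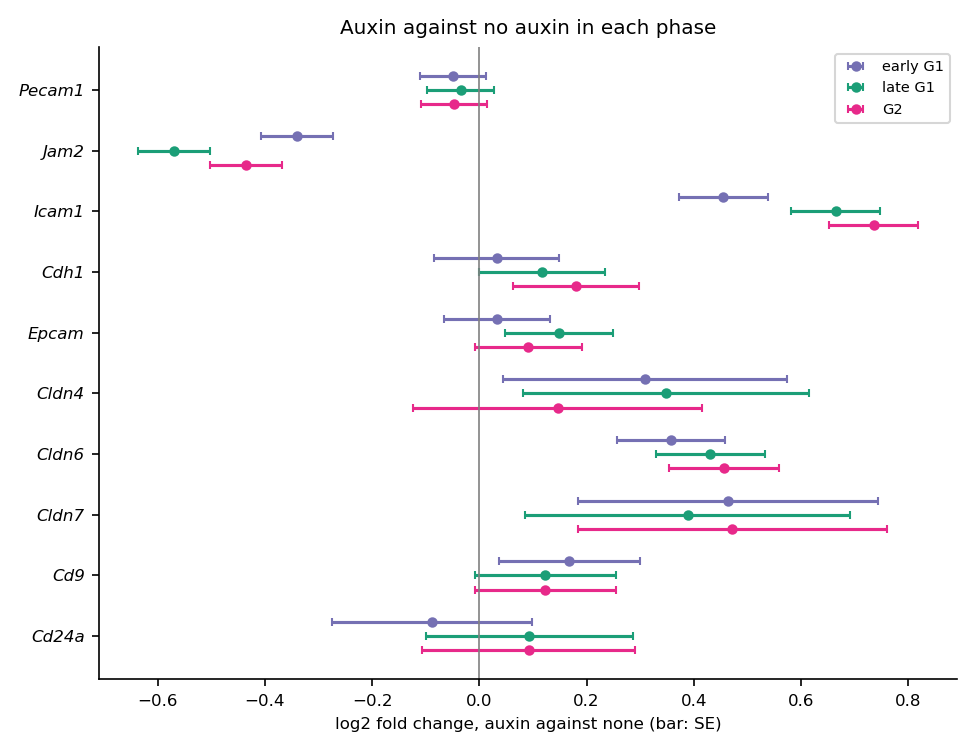
log2 fold change of auxin against no auxin for the 10 transcripts by phase, with bars of 1 SE. *Jam2* lies left of 0 (-0.34 to -0.57) and *Icam1* right of it (0.45 to 0.73) in each phase, and *Pecam1* stays within 0.05 of 0.

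**Figure D5:**
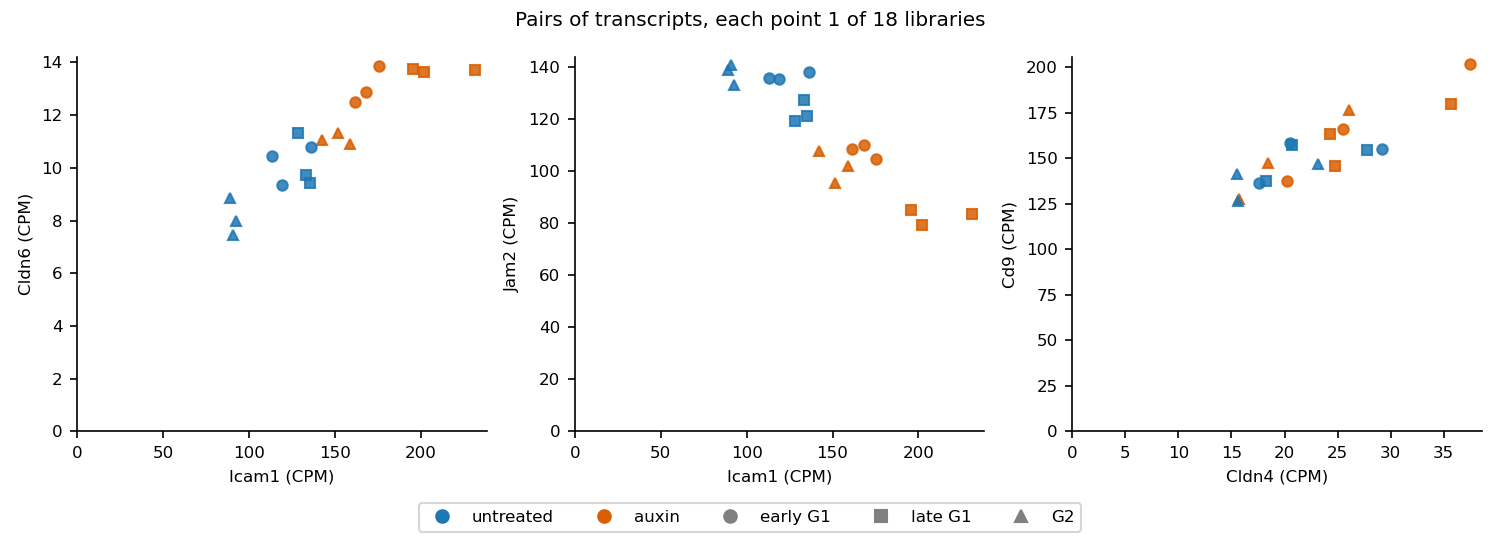
CPM of 3 pairs of transcripts in the 18 libraries, coloured by auxin and shaped by phase, on axes from 0. *Icam1* and *Cldn6* are both lowest in untreated G2, *Jam2* is lowest where *Icam1* is highest (late G1 with auxin), and the highest *Cd9* value, 201.6 CPM, is in the library with the highest *Cldn4*, 37.5 CPM.

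Related genes were described by lists that leave out the 10 members. For auxin averaged over phases, 1 of 16 tested tight junction genes was higher and 0 lower, beside 5.68% of all genes called in either direction. It was *Esam*, an endothelial and platelet junction molecule, at 0.50 ± 0.09. Among 23 cadherin, catenin and nectin genes 2 were higher and 3 lower. They were *Cdh13* at -1.05 ± 0.23, *Ctnnd1* (p120-catenin, which stabilises cadherins) at -0.27 ± 0.06, *Dsc2* at 0.59 ± 0.16, *Pvr* at -0.30 ± 0.08 and *Cdh5* at 0.83 ± 0.23, the last added to complete the count. *Cdh13* and *Cdh5* were scarce, at 1.34 and 0.359 CPM on average without auxin and 0.669 and 0.628 CPM with it. The tetraspanin list had 1 higher of 23, *Cd81*, a close relative of *Cd9*, at 0.27 ± 0.04. The immunoglobulin family had 1 higher of 15, *Emb*, at 0.33 ± 0.09, and the integrins 1 higher of 19, *Itga3*, at 0.39 ± 0.09. Of 21 other stem cell surface genes 3 were higher and 3 lower. *Lifr* and *Il6st*, the 2 chains of the LIF receptor, were lower at -0.58 ± 0.05 and -0.29 ± 0.05. *Fut4*, a fucosyltransferase, was higher at 0.80 ± 0.16 and *Prom1* at 0.35 ± 0.08. *Fut4* averaged only 0.89 CPM without auxin and 1.54 CPM with it. *Tfrc* (0.20 ± 0.05) and *Fut9*, the fucosyltransferase of the SSEA-1 sugar in mouse embryonic stem cells (-0.44 ± 0.12), complete the count. Of 12 stem cell markers 5 were lower and 0 higher: *Zfp42* (-0.34 ± 0.05), *Nanog* (-0.29 ± 0.04), *Fgf4* (-0.40 ± 0.06), *Sall4* (-0.53 ± 0.10) and, completing the count, *Esrrb* (-0.24 ± 0.07).

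By phase in untreated cells, G2 against early G1 called 1 of the 23 cadherin and desmosome genes, *Dsp* (desmoplakin) at -0.60 ± 0.10 (adjusted p = 0.00181), and 2 integrins, *Itgb5* at -0.47 ± 0.12 (adjusted p = 0.0364) and *Itgb3* at -0.67 ± 0.18 (adjusted p = 0.0435), all lower. No gene of the tight junction, tetraspanin, immunoglobulin or other surface lists was called there, beside 3.6% of all tested genes. From early to late G1, the comparison in which *Pecam1* fell, genes were named after their values were seen. Of all tested genes 7.02% were called in it. *Mcam*, another adhesion molecule of vessels, rose by 0.57 ± 0.10 (adjusted p = 0.00144), while *Alcam* (-1.51 ± 0.35) and *Cd47* (-0.79 ± 0.22) fell, the 3 called of 15 immunoglobulin-family genes. In the tight junction list *Esam* rose (0.78 ± 0.16) and *Tjp3* (-0.71 ± 0.15), *Ocln* (-1.09 ± 0.27) and *Cldn3* (-1.92 ± 0.55) fell. Some of these genes are scarce. *Cldn3* averaged 0.472 CPM in early and 0.122 CPM in late G1, *Ocln* 1.72 and 0.804 CPM, and *Alcam* 1.02 and 0.354 CPM. *Cd55*, a complement regulator anchored by GPI like CD24, fell by 0.72 ± 0.11 (adjusted p = 0.000525), the only call of 21 other surface genes. *Pvrl4* rose by 1.29 ± 0.27 and *Dsc2* fell by 1.13 ± 0.29 among the cadherin, catenin and nectin genes, *Cd37* rose by 0.75 ± 0.22 among the tetraspanins, and *Itgb3* fell by 0.76 ± 0.18 among the integrins.

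Markers of trophectoderm and simple epithelium, in which claudins and *Epcam* are also expressed, were checked as well. Their summed level was 56.86 to 71.31 CPM in untreated early G1, 45.53 to 60.16 CPM in late G1 and 39.91 to 57.09 CPM in G2, and 68.39 to 85.22, 53.41 to 68.59 and 44.61 to 67.06 CPM with auxin. The ranges with and without auxin overlapped in each phase. Between phases, only early G1 and G2 with auxin did not overlap. No gene of this list was called for auxin within a single phase, where 0.106% to 1.02% of all genes were. Of 12 listed genes 9 were tested, and for auxin averaged over phases 3 were higher and 1 lower: *Cdx2* at 1.22 ± 0.19, *Krt18* at 0.43 ± 0.12, *Krt8* at 0.34 ± 0.10 and *Tfap2c* at -0.50 ± 0.10. In untreated G2 against early G1, *Dsp* and *Tfap2c* (-0.80 ± 0.18) were lower, beside 3.6% of all tested genes called. *Cdx2* did not exceed 1.03 CPM and *Elf5* 0.121 CPM, and no marker was at 0 in all libraries. The part of such cells in the claudin and *Epcam* values was not tested. Of the endothelial list *Esam*, *Cdh5* and *Plvap* (0.86 ± 0.23) were higher with auxin on average, 3 of 10 tested. Of all tested genes 5.68% were called for auxin on average, in either direction. The median of the 10 tested endothelial markers was -0.012. *Cdh5* and *Plvap* were scarce, at 0.359 and 0.923 CPM on average without auxin. The summed level of the endothelial list overlapped between groups. No blood marker of 5 tested and no fibroblast marker of 7 was called for auxin on average, and *Pdgfrb* (-0.66 ± 0.18) was the 1 fibroblast marker called in untreated G2 against early G1.

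In the mouse annotation 4 of the 10 lie next to a relative: *Cldn4* next to *Cldn3*, *Cldn6* next to *Cldn9*, *Icam1* next to *Icam4* and *Cdh1* next to *Cdh3*.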

How the data were processed

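RNA was sequenced from 18 libraries of the Sox2-AID line. The authors deposited expected counts per gene, already whole numbers, and TPM values with 2 decimals; per the submitters' processing notes the tools used in the series include STAR, RSEM, Bowtie2 and MACS2 with build mm9, and their roles, versions and annotation are not given in the sources used here.

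Expected counts were used as deposited by the authors, with edgeR 4.0.16 in R 4.3.3: TMM scaling, filterByExpr by group (16011 of 37620 genes kept), 1 mean per group, all 18 libraries in 1 fit, robust quasi-likelihood F tests and Benjamini-Hochberg adjustment over the kept genes, with a call at an adjusted p under 0.05. SE is the log2 fold change divided by the square root of F. The script was tested on simulated data. Alternatives were RLE scaling, DESeq2 1.42.0, other filters, limma 3.58.1 on log2(TPM + 1) or log2(TPM + 0.1) of the authors' TPM, a replicate block, the contrast's groups alone, and left-out libraries. A TPM rescaled without AC157822.1 was added after seeing the data.

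The members and lists were chosen with earlier results of these data known. Named are the 10 members, up to 4 called list genes with the smallest p for auxin averaged over phases and for untreated G2 against early G1, and the 5 transcripts most like each of the 2 members with the largest auxin difference (average log2 CPM reaching 3). Replicates differed beyond counting noise (chi-square per degree of freedom of 14.7 to 53.8). The labels do not say that replicates are separate cultures, so p-values measure only the spread between these samples, which may be technical. Replicate numbers come from the labels: all 18 libraries resembled their own number most, and the correlation of same-numbered libraries was over 0.1 in every comparison except auxin in G2 (lowest 0.053), auxin on average and the comparisons of auxin effects that involve G2. At 16 to 9796 counts per member and library, *Cldn7* is the least precise.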

Additional observations from a re-analysis of the deposited data

How the results depend on the processing

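The number of the 10 members called is given here where a setting moved it by more than 1.5 times, with the range over left-out libraries. Smaller moves, such as 3 for 2 with DESeq2, are not listed. The share of all genes called moved too: over the 10 comparisons it was 0.106% to 7.42% in the fit reported, 0.306% to 10.1% with DESeq2, 0% to 7.36% on log2(TPM + 1) and 1.59% to 24.6% with the replicate block. For auxin in early G1 (1 called), DESeq2 and the stricter filter gave 2, the 4 TPM fits and the fit to these groups alone 0, and left-out libraries 0 to 1. For auxin in late G1 (3) the TPM fits gave 0 and the rescaled TPM 1, with 2 to 3 without a library. For auxin in G2 (3) every TPM fit gave 0 and the groups alone 1, with 2 in each fit without a library. On average over phases (3), unfiltered TPM gave 1, and left-out libraries 3 to 4. From early to late G1 without auxin (3), leaving out the untreated libraries numbered 3, or fitting these groups alone, gave 1, and single left-out libraries 2 to 3. G2 against early G1 without auxin (2) gave 1 on TPM, on rescaled TPM, without the libraries numbered 3 and with the groups alone, and 2 without any 1 library. G2 against late G1 without auxin (2) gave 1 on all TPM scales and 2 without any 1 library. With auxin, early to late G1 (4) gave 2 without the count filter, 1 on TPM, 2 on rescaled TPM and with the groups alone, and 2 to 3 without a library. G2 against early G1 (1) gave 0 on all TPM scales and 1 without any 1 library, and G2 against late G1 (3) gave 1 on TPM and 2 to 3 without a library. The cause was not tested. The order of levels over the auxin libraries kept 6 of 10 ranks.

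The replicate block raised the number called to 4 for auxin in early G1, 4 for auxin in late G1, 7 on average over phases (where the numbers do not pair the samples by the check used), 4 for early to late G1 without auxin and 5 with it, 5 for G2 against early G1 and 6 for G2 against late G1 without auxin, and 3 and 6 for these with auxin. No member value called in the fit reported changed sign under any alternative run. The auxin averages of *Cdh1* (0.11) and *Cd9* (0.13), called only with the block, were -0.09 and -0.07 on log2(TPM + 1). *Pecam1* kept its calls between late G1 and the other phases in all of them. Small differences changed sign with scale in 67 cases, none of them called on that scale. Depth limits *Cldn7* and *Cd24a* most.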
